A study of Mus musculus with 8 samples.

Results

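The genes described are 10 transcription factor genes of the AP-1 group and its close partners: Fos, Fosb, Fosl1, Fosl2, Jun, Junb, Jund, Atf3, Maff and Batf. They were taken by name, and through 14 probe sets that the platform annotation assigns to 1 gene each, from 18193 genes measured on Affymetrix mouse expression arrays. All 10 were found. The arrays carried RNA of mouse embryonic fibroblasts of strain C57BL/6 at passage 13, which had been starved for 5 hours. Control (wild type) cells and Stat5a/b-null cells, which lack the genes of both STAT5 proteins, were then left without growth hormone (GH) or given it at 1 ug/ml for 2 hours. Each of the 4 resulting groups was measured on 2 arrays, called biological replicates in the labels. Neither the source of the GH nor the number of embryos or lines behind each genotype is stated in the labels. The p-values therefore measure the spread between these arrays, which may be technical.

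AP-1 is a dimer of basic leucine zipper proteins. The JUN proteins (JUN, JUNB, JUND) can pair with each other or with a FOS protein (FOS, FOSB, FOSL1, FOSL2), whereas FOS proteins need a partner. ATF3 and BATF are related proteins that also pair with JUN proteins, and MAFF is a small MAF protein that lacks a transactivation domain. In fibroblasts many of these genes are immediate early genes, switched on within minutes to hours by growth factors, cytokines and stress through MAP kinases, and AP-1 in turn drives genes of matrix breakdown, migration and inflammation. GH signals mainly through JAK2 and STAT5, and it also reaches the MAP kinases.

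Values are deposited log2 expression levels. A difference is the mean log2 level of 1 group minus that of another, given with the standard error (SE) of limma's fit over all 8 arrays, and a gene was called where its p, adjusted over all genes by Benjamini-Hochberg, was below 0.05. Levels of different genes are not set against each other, because probe sets differ in brightness for the same amount of RNA. Array medians lay between 6.89 and 6.96, and arrays of 1 group correlated with each other at 0.997 to 0.998. The deleted genes bore out the labels: on all 4 probe sets of Stat5a and Stat5b every null array (4.32 to 7.33) lay below every control array (7.13 to 8.48) of the same probe set. All 12 fibroblast markers lay above the first quartile of gene values (6.097) in every group. So did all 12 markers of macrophages and leukocytes on control arrays, so this measure does not set the cell types apart there. Some fibroblast markers differed strongly by genotype: without GH, Lum stood at 7.76 in control and 12.08 in null cells, Dcn at 10.96 and 14.53, and Pdgfra at 9.16 and 12.96. Markers of macrophages and leukocytes differed between the genotypes: all 12 were lower in null cells in either GH state. Their summed level ran from 14.64 to 14.83 on the log2 scale on control arrays and from 11.14 to 11.42 on null arrays. Without GH, Lyz2 stood at 13.90 in control and 8.58 in null cells, Csf1r at 11.28 and 8.92, and Cd14 at 9.96 and 9.18. In null cells 4 of the 12 without GH and 6 with GH were below the first quartile, among them Ptprc and Itgam in either state. Over all arrays the summed log2 level ran from 10.09 to 10.27 for epithelial, from 8.86 to 9.08 for endothelial and from 8.15 to 8.43 for lymphoid markers.

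The response to GH differed between the genotypes past the threshold for 4 of the 10 genes. The members, and the lists below, were chosen with earlier results of these data known, so counts of called genes only describe them. In null cells Fosl1, Jun, Junb and Maff rose and Fos fell after 2 hours, whereas in control cells Junb rose and Atf3 fell. In null cells this made 4 of 10 members higher and 1 lower, beside 5.36% and 6.35% of all genes. The split of all genes turned with the scaling, from 975 higher and 1155 lower to 1144 and 726 with arrays centred on their medians, where 6 members were higher and 1 lower. In control cells it made 1 of 10 higher and 1 lower, beside 1.72% and 0.896% of all genes. The median difference of the members was 0.29 in null cells (all genes -0.07) and -0.07 in control cells (all genes -0.02). The GH effect itself differed between the genotypes for Fosl1, Jun, Atf3 and Maff, each with the higher value in null cells. These were 4 of 10 members, beside 2.83% of all genes with a higher and 2.33% with a lower effect in null cells (515 and 423 genes, or 697 and 311 with arrays centred on their medians). Of the 12 macrophage and leukocyte markers, Cd14, an endotoxin co-receptor, rose with GH in control (1.79 ± 0.10) and null cells (0.61 ± 0.10) and none fell. The GH effect was lower in null cells for Cd14 (-1.18 ± 0.14, adjusted p = 0.000513) and for Adgre1, which lay below the first quartile on null arrays with GH. Their part in the responses below was not tested.

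**Figure D1:**
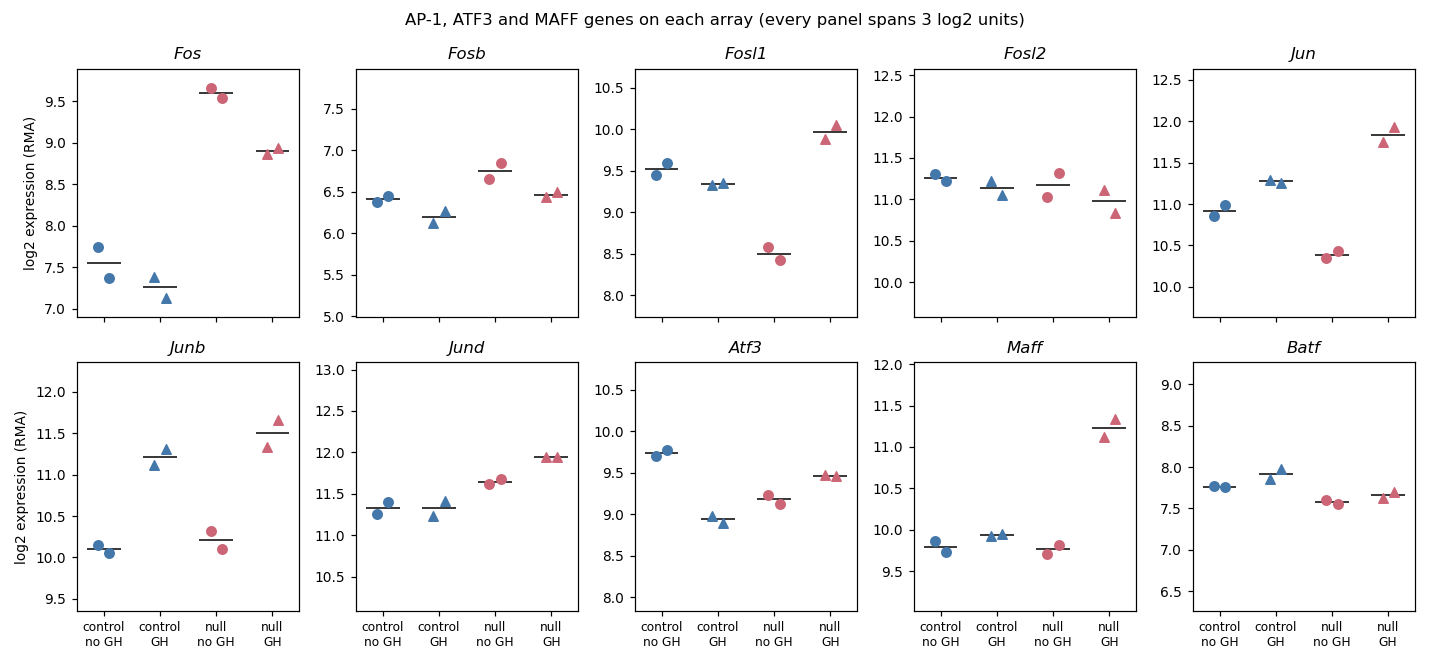
Log2 expression of the 10 genes on each of the 8 arrays, with control cells in blue, Stat5a/b-null cells in red, circles for no GH, triangles for GH and a line at each group mean; every panel spans the same log2 range. Fos separated the genotypes, Junb separated the GH states, and Maff stood at 11.11 and 11.33 on the null arrays with GH and at 9.94 or less on the others.

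Junb, whose product is a JUN protein that often restrains JUN, was the member that rose in either genotype. Without GH it stood at 10.15 and 10.05 on the control arrays and at 10.32 and 10.10 on the null arrays. With GH it stood at 11.11 and 11.31 on the control arrays and at 11.33 and 11.66 on the null arrays. Every array with GH lay above every array without it. The genotypes overlapped without GH, and with GH the null arrays lay just above the control arrays. The rise was 2.16-fold in control cells (1.11 ± 0.12 SE, adjusted p = 0.000186) and 2.44-fold in null cells (1.29 ± 0.12, adjusted p = 4.01e-05). The difference between these rises was 0.18 ± 0.18 (95% interval -0.21 to 0.56, adjusted p = 0.692), which leaves room for unequal rises within that interval.

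Jun, which encodes the founding partner of the AP-1 dimer, was measured by 2 probe sets. On the brighter one, control arrays stood at 10.85 and 10.99 without GH and at 11.29 and 11.26 with it. Null arrays stood at 10.34 and 10.43 without GH and at 11.75 and 11.93 with it, so the null groups enclosed the control groups from below and above without overlap. In null cells Jun rose 2.73-fold (1.45 ± 0.10, adjusted p = 1.29e-06). In control cells the difference was 0.35 ± 0.10 and did not pass (adjusted p = 0.0974). It passed under 2 of 17 other settings, with adjusted p from 0.0312 to 0.436 over all of them. The GH effect was larger in null cells by 1.10 ± 0.14 (adjusted p = 0.000546). The other probe set gave the same order of groups, with a rise of 1.25 ± 0.10 in null cells, 0.11 ± 0.10 in control cells and a difference of 1.14 ± 0.14 between them.

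Fosl1, which encodes the FOS protein FRA1 and is itself an AP-1 target gene, also rose in null cells. Control arrays stood at 9.45 and 9.59 without GH and at 9.33 and 9.35 with it. Null arrays stood at 8.58 and 8.42 without GH and at 9.89 and 10.05 with it. Fosl1 rose 2.77-fold in null cells (1.47 ± 0.10, adjusted p = 1.58e-06), whereas the difference in control cells was -0.18 ± 0.10 (95% interval -0.40 to 0.04, adjusted p = 0.625). The 2 effects differed by 1.65 ± 0.14 (adjusted p = 3.03e-05). The dimmer probe set of Fosl1 gave 1.77 ± 0.11 in null cells, -0.16 ± 0.11 in control cells and 1.92 ± 0.16 for their difference.

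Maff, the small MAF gene, was close to 1 level in 3 of the groups and higher in the group of null cells with GH. It stood at 9.86 and 9.73 on control arrays without GH, at 9.92 and 9.94 on control arrays with GH and at 9.71 and 9.81 on null arrays without GH. On null arrays with GH it stood at 11.11 and 11.33. The rise in null cells was 2.75-fold (1.46 ± 0.10, adjusted p = 1.72e-06), against a difference of 0.14 ± 0.10 in control cells (95% interval -0.08 to 0.35, adjusted p = 0.791). The effects differed by 1.32 ± 0.14 (adjusted p = 0.000189).

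Atf3, a stress-induced factor that often represses its targets, moved the other way in control cells. Its values were 9.70 and 9.77 on control arrays without GH and 8.98 and 8.90 with it. On null arrays they were 9.23 and 9.13 without GH and 9.47 and 9.46 with it. The control groups were thus the highest and the lowest of the 4, with the null groups between them and no overlap of any groups. Atf3 fell by 0.79 ± 0.09 on the log2 scale in control cells (1.73-fold, adjusted p = 0.000162). In null cells the difference was 0.29 ± 0.09 and did not pass (adjusted p = 0.0563). It passed under 5 of 17 other settings, with adjusted p from 0.0215 to 0.205. The GH effects differed by 1.08 ± 0.12 (adjusted p = 0.000322).

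**Figure D2:**
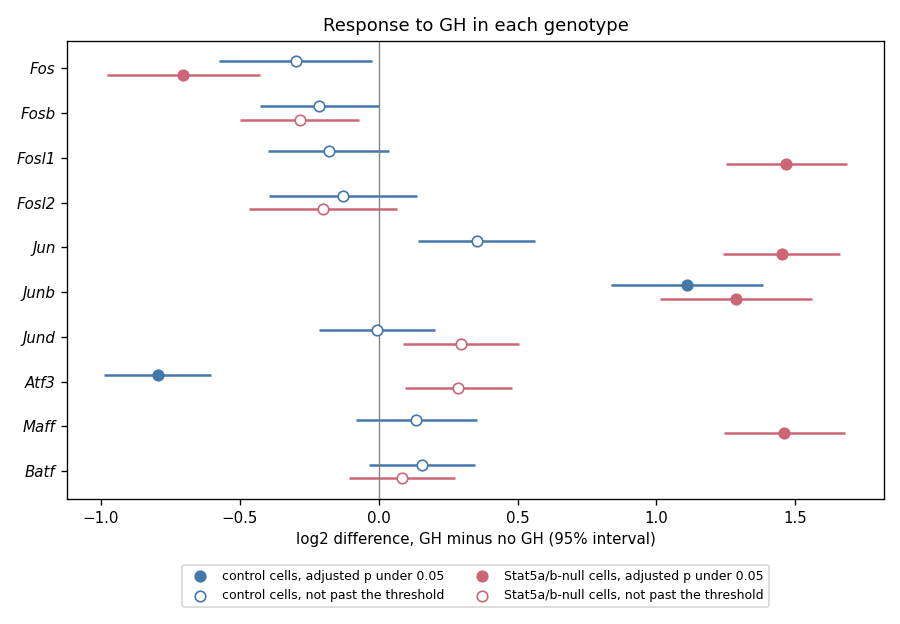
Log2 difference with GH minus without GH for the 10 genes in control cells (blue) and Stat5a/b-null cells (red), with 95% intervals of limma's fit; filled points passed the threshold. The points of Fosl1, Jun, Atf3 and Maff lie apart between the genotypes by 1.65, 1.10, 1.08 and 1.32, while those of Junb (1.11 and 1.29) lie close together.

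The upstream sequences of Jun, Maff, Atf3, Junb and Fos are shown because these genes responded to GH differently, and a reader can compare what lies before their start sites. Fosl1 has no entry in the table used. They were taken from RefSeq on GRCm38.p6, which held an entry for 9 of the 10 members with 11 annotated start sites, and each gives the 250 bases before a start site, 5′ to 3′. Capitals mark matches, on either strand, to a CRE-like site (TGACNTCA, in 7.49% of the 32851 windows of that length before all RefSeq mouse starts in the table), to the CRE core (TGACGT, 6.47%), which overlaps the CRE-like site, to an AP-1 site (TGANTCA, 6.75%), to the STAT motif called GAS (TTCNNNGAA, 7.02%), to the CArG box of serum response factor (1.47%), to an NF-kappaB site (3.9%) and to the TATA box (TATAAA, 12.4%). Jun lies at chr4:95052223-95052472 (minus strand), Junb at chr8:84978749-84978998 (minus), Atf3 at chr1:191183334-191183583 (minus) and Fos at chr12:85473640-85473889 (plus). Of the 3 starts of Maff, start 1 held none of the motifs and is not shown. Starts 2 and 3 lie at chr15:79347270-79347519 and chr15:79348152-79348401 (plus).
Jun: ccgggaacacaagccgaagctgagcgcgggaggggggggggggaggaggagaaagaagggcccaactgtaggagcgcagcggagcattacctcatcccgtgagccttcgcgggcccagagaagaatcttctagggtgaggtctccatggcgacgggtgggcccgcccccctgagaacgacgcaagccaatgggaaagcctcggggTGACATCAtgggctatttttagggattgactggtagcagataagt
Maff start 2: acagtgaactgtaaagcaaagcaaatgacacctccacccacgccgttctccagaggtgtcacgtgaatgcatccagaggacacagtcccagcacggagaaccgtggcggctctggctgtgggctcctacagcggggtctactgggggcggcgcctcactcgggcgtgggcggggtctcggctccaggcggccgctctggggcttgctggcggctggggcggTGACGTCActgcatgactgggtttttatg
Maff start 3: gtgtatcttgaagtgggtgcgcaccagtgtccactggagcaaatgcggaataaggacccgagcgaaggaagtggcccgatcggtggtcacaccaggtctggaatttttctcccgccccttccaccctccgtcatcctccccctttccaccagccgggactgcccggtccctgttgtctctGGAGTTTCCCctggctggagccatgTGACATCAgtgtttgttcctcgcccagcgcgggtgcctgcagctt
Atf3: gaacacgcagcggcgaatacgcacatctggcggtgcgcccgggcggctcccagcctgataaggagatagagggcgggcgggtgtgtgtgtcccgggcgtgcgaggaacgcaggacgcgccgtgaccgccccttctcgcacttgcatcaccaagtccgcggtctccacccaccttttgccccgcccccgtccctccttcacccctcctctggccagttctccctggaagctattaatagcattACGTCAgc
Junb: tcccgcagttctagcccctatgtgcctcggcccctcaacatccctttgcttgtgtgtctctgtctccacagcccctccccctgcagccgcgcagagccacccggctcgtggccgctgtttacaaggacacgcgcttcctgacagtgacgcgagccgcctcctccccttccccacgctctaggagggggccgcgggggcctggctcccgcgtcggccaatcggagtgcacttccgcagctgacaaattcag
Fos: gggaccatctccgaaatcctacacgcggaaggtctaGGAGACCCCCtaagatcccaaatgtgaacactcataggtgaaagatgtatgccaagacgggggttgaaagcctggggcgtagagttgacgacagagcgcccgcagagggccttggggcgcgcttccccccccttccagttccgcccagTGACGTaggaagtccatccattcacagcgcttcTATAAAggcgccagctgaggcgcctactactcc
A CRE-like site was found in 3 of the 11 member windows, which were those of Jun (TGACATCA, first base at -45 from the start), of Maff start 2 (TGACGTCA, at -29) and of Maff start 3 (TGACATCA, at -45). The CRE core alone was found before Fos (at -66), Atf3 (ACGTCA on the strand shown, at -8) and Batf (at -98). An NF-kappaB match lay before Fos, Fosb, Fosl2 and Maff start 3, and a TATA box before Fos (at -33). No window of a member held the letters of the AP-1 site, the GAS or the CArG box, and no motif searched was found before Junb, Jund or Maff start 1. These are matches of letters in a short window and not measured binding. Sequence farther upstream than 250 bases was not searched, so a motif absent here may lie there.

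Fos, the classic immediate early gene, differed most between the genotypes. It stood at 7.74 and 7.37 on control arrays without GH and at 7.38 and 7.13 with it. Null arrays stood at 9.66 and 9.54 without GH and at 8.86 and 8.93 with it. The order of the groups was null without GH, null with GH, control without GH and control with GH, and the control groups overlapped (7.37 without against 7.38 with GH). Without GH, Fos was 4.13-fold higher in null cells than in control cells (2.05 ± 0.13, adjusted p = 5.12e-08) and 3.12-fold higher with GH (1.64 ± 0.13, adjusted p = 3.84e-07). After 2 hours with GH, the only time measured, it was lower by 0.70 ± 0.13 in null cells (95% interval -0.98 to -0.43, adjusted p = 0.00381). Without the null array with GH numbered 2 this difference was -0.67 with an adjusted p of 0.0619, and adjusted p ran from 0.000108 to 0.0619 over 17 other settings. In control cells the difference was -0.30 ± 0.13 (adjusted p = 0.413), and the GH effects did not differ past the threshold (-0.40 ± 0.18, 95% interval -0.79 to -0.01, adjusted p = 0.267).

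Between the genotypes without GH, 3 of 10 members were higher in null cells (Fos, Fosb, Jund) and 3 lower (Fosl1, Jun, Atf3), beside 24.8% and 22.7% of all genes. With GH, 7 of 10 were higher (Fos, Fosb, Fosl1, Jun, Jund, Atf3, Maff) and 1 lower (Batf), beside 22.2% and 23.1% of all genes. The median difference of the members went from -0.06 without GH (all genes 0.03) to 0.55 with GH (all genes -0.02). The macrophage and leukocyte markers, all lower in null cells, moved with each of these genotype differences, and their part in them was not tested. No size is given for them as a set, because some lay below the first quartile in null cells. In bulk RNA, fewer cells of a type and less RNA per cell cannot be told apart.

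Fosl1, Jun and Atf3 changed sides between these comparisons. Without GH they were lower in null cells by 1.02 ± 0.10 (Fosl1, 2.03-fold, adjusted p = 2.99e-06), 0.53 ± 0.10 (Jun, adjusted p = 0.000525) and 0.55 ± 0.09 (Atf3, adjusted p = 0.000191). With GH they were higher by 0.63 ± 0.10 (Fosl1, adjusted p = 0.000195), 0.57 ± 0.10 (Jun, adjusted p = 0.000341) and 0.53 ± 0.09 (Atf3, adjusted p = 0.000296). Fosl1 kept both calls under every alternative. Jun and Atf3 lost both only where a change of at least 1.5-fold was required. The change of side is the difference of GH effects given above, seen from the genotypes. Maff did not differ past the threshold without GH (-0.03 ± 0.10, 95% interval -0.25 to 0.18, adjusted p = 0.817) and was 2.45-fold higher in null cells with GH (1.29 ± 0.10, adjusted p = 4.14e-07). Junb gave 0.11 ± 0.12 without GH (adjusted p = 0.526) and 0.28 ± 0.12 with it (adjusted p = 0.0854), and passed in the latter under 3 of 17 other settings, with adjusted p from 0.0261 to 0.556.

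**Figure D3:**
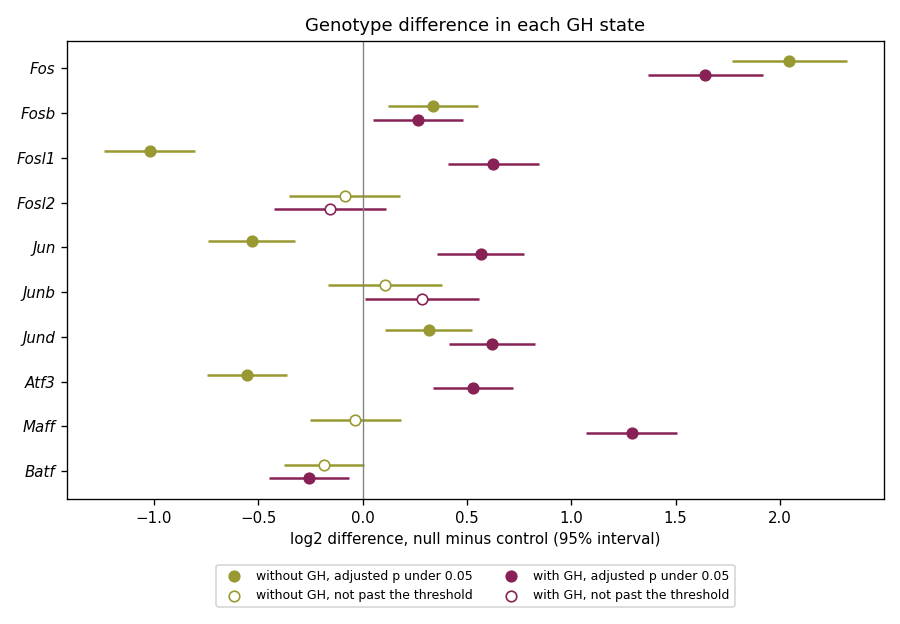
Log2 difference of Stat5a/b-null minus control cells for the 10 genes without GH (olive) and with GH (purple), with 95% intervals of limma's fit; filled points passed the threshold. Fosl1, Jun and Atf3 lie left of 0 without GH and right of it with GH, and Fos lies far to the right in either state (2.05 and 1.64).

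Jund, the JUN gene that is usually expressed without a stimulus, was higher in null cells. The probe set used read 11.26 and 11.40 on control arrays without GH, 11.23 and 11.41 with GH, 11.62 and 11.67 on null arrays without GH and 11.94 and 11.95 with it. All null arrays lay above all control arrays. The genotype difference was 0.32 ± 0.10 without GH (adjusted p = 0.0154) and 0.62 ± 0.10 with GH (1.54-fold, adjusted p = 0.000154). The former did not pass without the control array numbered 2 (0.25, adjusted p = 0.0994), without the null array numbered 3 (0.29, adjusted p = 0.0761) or with the probe sets averaged (0.10, adjusted p = 0.29), the last of which takes in a Jund probe set below the first quartile in every group. Adjusted p ran from 0.0045 to 0.29 over its 17 settings. A minimum change of 1.5-fold also removed the call without GH. With the probe sets averaged the difference with GH was 0.23 (adjusted p = 0.0286, the highest of its 17 settings). GH gave 0.30 ± 0.10 in null cells (adjusted p = 0.0664), which passed under 3 of 17 other settings (0.07 to 0.34, adjusted p from 0.026 to 0.569, the lowest value with the probe sets averaged), and -0.01 ± 0.10 in control cells (adjusted p = 0.997), and the difference of these did not pass (0.30 ± 0.13, adjusted p = 0.27).

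Fosb, the closest relative of Fos, lay only just above the first quartile, and its group means ran from 6.20 to 6.75. It stood at 6.38 and 6.44 on control arrays without GH, at 6.13 and 6.27 with GH, at 6.65 and 6.85 on null arrays without GH and at 6.43 and 6.49 with it. The null arrays without GH lay above all others, which overlapped in part. In null cells it was higher by 0.34 ± 0.10 without GH (adjusted p = 0.0128) and by 0.27 ± 0.10 with GH (adjusted p = 0.0428). The former was lost without the control array numbered 2 (0.30, adjusted p = 0.0592) and without the null array numbered 3 (0.24, adjusted p = 0.113), and adjusted p ran from 0.00891 to 0.113 over 16 settings. The latter was lost without any 1 of the 4 arrays with GH (0.19 to 0.34, adjusted p from 0.0506 to 0.273), with each probe set tested alone (adjusted p = 0.0546) and with a variance trend (adjusted p = 0.0689), and adjusted p ran from 0.00975 to 0.273 over 16 settings. A minimum change of 1.5-fold also removed both calls. GH gave -0.28 ± 0.10 in null cells (adjusted p = 0.0851) and -0.21 ± 0.10 in control cells (adjusted p = 0.487).

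Fosl2, which encodes the FOS protein FRA2, showed no difference past the threshold in any of the 5 comparisons on its brighter probe set. That probe set read 11.30 and 11.22 on control arrays without GH, 11.22 and 11.05 with GH, 11.03 and 11.32 on null arrays without GH and 11.12 and 10.84 with it. The null groups overlapped with each other and with control groups, while control arrays without GH lay above all arrays with GH. The GH effect was -0.13 ± 0.12 in control cells (95% interval -0.40 to 0.14) and -0.20 ± 0.12 in null cells (-0.47 to 0.07). Its other, dimmer probe set differed from this one between the genotypes, with 0.58 ± 0.12 more in null cells without GH (adjusted p = 0.00187) and 0.50 ± 0.12 with GH (adjusted p = 0.00542), both adjusted over all probe sets. Neither probe set passed for GH.

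Batf, which encodes a factor best known from lymphoid and myeloid cells, had group means that spanned 0.34. It stood at 7.77 and 7.76 on control arrays without GH, at 7.86 and 7.98 with GH, at 7.60 and 7.56 on null arrays without GH and at 7.62 and 7.70 with it, so every null array lay below every control array. It was lower in null cells with GH by 0.26 ± 0.09 (adjusted p = 0.0295), and gave -0.18 ± 0.09 without GH (adjusted p = 0.106). The call with GH was lost without any 1 of the 4 arrays with GH (-0.31 to -0.20, adjusted p from 0.0503 to 0.227), with the arrays centred on their medians (adjusted p = 0.0699) and after a new quantile normalization (adjusted p = 0.102), with adjusted p from 0.0164 to 0.227 over 16 settings. A minimum change of 1.5-fold also removed the call with GH. The GH effect was 0.16 ± 0.09 in control and 0.08 ± 0.09 in null cells, neither past the threshold.

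Other leucine zipper genes that can meet AP-1 proteins, made up a list of 24, of which 22 were measured. With GH, in control cells Cebpb, a factor of inflammatory gene control, rose (0.84 ± 0.09, adjusted p = 0.000105) and Nfil3, a repressor, fell (-1.43 ± 0.09, adjusted p = 8.13e-07). In null cells 5 rose and none fell, beside 5.36% and 6.35% of all genes (median 0.06, all genes -0.07). Those that rose included Cebpd (1.23 ± 0.10), Cebpb (0.79 ± 0.09), Nfe2l1 (0.64 ± 0.10) and Jdp2, a JUN partner and repressor (0.52 ± 0.09). The GH effect was higher in null cells for Nfil3 (1.14 ± 0.13), Cebpd (1.05 ± 0.14) and Jdp2 (0.69 ± 0.13), and lower for none of the 22. Of all genes, 2.83% had a higher and 2.33% a lower effect in null cells. Of the 22, 8 were higher and 8 lower in null cells without GH (all genes 24.8% and 22.7%), and 11 higher and 4 lower with GH (all genes 22.2% and 23.1%), in comparisons with which the macrophage and leukocyte markers also moved. Without GH the lowest p values belonged to Ddit3 (-1.55 ± 0.09), Maf (2.38 ± 0.17), Cebpd (1.04 ± 0.10) and Atf6 (-0.91 ± 0.10).

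Of 25 genes for upstream kinases and for serum response factor and its partners, 20 were measured. GH raised Map3k8, a kinase that feeds the ERK and JNK pathways, in control cells (1.71 ± 0.11, adjusted p = 7.39e-07) and in null cells (1.98 ± 0.11, adjusted p = 1.91e-07). Map2k6, a p38 kinase activator, rose in control cells (0.51 ± 0.08) and fell in null cells (-0.48 ± 0.08), a difference of -0.99 ± 0.12 (adjusted p = 0.00047). Srf, the serum response factor gene, fell in control cells (-0.50 ± 0.10, adjusted p = 0.0123), and its GH effect was higher in null cells by 0.64 ± 0.13 (adjusted p = 0.0168). Map2k3, another p38 kinase activator, rose in null cells (0.64 ± 0.10) and Mapk8, which encodes the JUN kinase JNK1, rose there too (0.45 ± 0.09). In all, 2 rose and 1 fell in control cells, beside 1.72% and 0.896% of all genes. In null cells 4 rose and 1 fell, beside 5.36% and 6.35% of all genes. The medians in control and null cells were 0.02 and 0.06 (all genes -0.02 and -0.07). Of the 20, 8 were higher and 6 lower in null cells without GH (all genes 24.8% and 22.7%), and 10 higher and 4 lower with GH (all genes 22.2% and 23.1%), where the macrophage and leukocyte markers moved as well.

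Genes known as AP-1 targets made up a list of 25, of which 22 were measured. This list too was chosen with earlier results of these data known, so its counts are a description only. Whether AP-1 took part in the changes of these genes was not tested. With GH, in control cells 4 rose and 3 fell, beside 1.72% and 0.896% of all genes (median -0.01, all genes -0.02). In null cells 12 rose and 1 fell, beside 5.36% and 6.35% of all genes (median 0.40, all genes -0.07). The GH effect was higher in null cells for 10 of them and lower for none, beside 2.83% and 2.33% of all genes (median 0.41, all genes -0.05). Ereg, a growth factor of the EGF family, fell in control cells (-1.14 ± 0.13, adjusted p = 0.000273) and rose in null cells (1.42 ± 0.13, adjusted p = 3.12e-05), a difference of 2.56 ± 0.19. The collagen- and matrix-cleaving protease genes Mmp3 (1.34 ± 0.09 in null, -0.01 ± 0.09 in control cells) and Mmp9 (1.53 ± 0.11 and 0.19 ± 0.11), and the prostaglandin synthase gene Ptgs2 (1.36 ± 0.12 and -0.28 ± 0.12), rose in null cells and did not pass in control cells. The chemokine gene Ccl2 rose by 4.12 ± 0.12 in null and 2.48 ± 0.12 in control cells, the cytokine gene Lif by 2.22 ± 0.10 and 1.22 ± 0.10, and the collagenase gene Mmp13 by 2.41 ± 0.14 and 1.34 ± 0.14. The cytokine gene Il6 rose in either genotype; in null cells its level without GH was below the quartile named above, so no size is given there. Dusp1, a phosphatase that turns off MAP kinases, fell in either genotype (-1.03 ± 0.09 in null and -0.58 ± 0.09 in control cells). Without GH, 17 of these genes were lower in null cells and 3 higher, beside 22.7% and 24.8% of all genes (median -0.82, all genes 0.03). Among the lower were Tnc (-3.21 ± 0.15), Plaur (-1.64 ± 0.10) and Timp1 (-1.39 ± 0.08). With GH, 11 were lower and 8 higher, beside 23.1% and 22.2% of all genes (median -0.28, all genes -0.02). Tnc (-2.80 ± 0.15) and Il6 (-2.44 ± 0.13) were lower, and Mmp3 (2.20 ± 0.09) and Mmp9 (2.13 ± 0.11) higher. The macrophage and leukocyte markers moved with these genotype differences too.

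**Figure D4:**
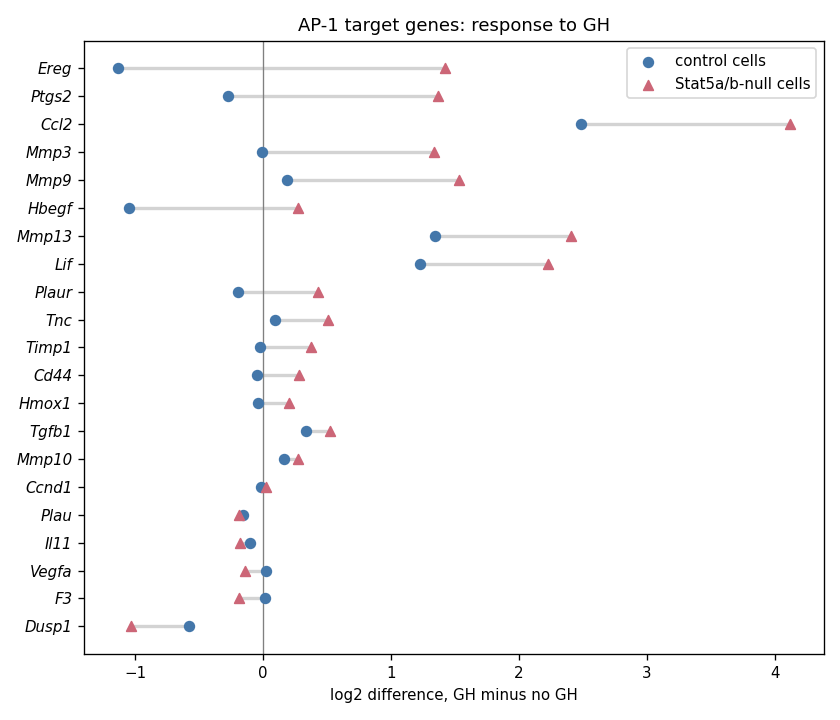
Log2 difference with GH minus without GH of 21 AP-1 target genes in control cells (blue circles) and Stat5a/b-null cells (red triangles), ordered by the difference between the genotypes; Il6 is left out because 1 of its groups was below the first quartile. Ereg, Ptgs2, Ccl2, Mmp3 and Mmp9 lie farther right in null cells, and Dusp1 lies left of 0 in either genotype.

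The members also differed in which other genes ran alongside them over the 8 arrays. For the 5 members whose group means spanned at least 1 on the log2 scale, the genes with the highest Pearson correlation among 2775 others of like span were sought. Only the highest group mean of these had to lie above the first quartile. The points share arrays and fall into 4 groups, so these values only describe a shape. Fos ran with Crmp1 (r = 0.997), the cyclin gene Ccna2 (0.994) and 2810433D01Rik (0.994). Fosl1 ran with Tmem140 (0.992), the hyaluronan synthase gene Has2 (0.978) and C130075A20Rik (0.967). Jun ran with Trim47 (0.995), Gch1 (0.988), which makes a cofactor for nitric oxide synthesis, and Hivep1 (0.984). Junb ran with Nfkbie (0.979), an inhibitor of NF-kappaB, Rasgef1a (0.978) and 4833438C02Rik (0.976). Maff ran with B4galt5 (0.992), Fam184b (0.991) and the chemokine gene Ccl8 (0.989). Fam184b lay above the first quartile only in null cells with GH (7.12), so its likeness to Maff rests on that group. Likewise 2810433D01Rik lay below the quartile in control cells (5.44 and 5.32), and Rasgef1a in control and null cells without GH (5.64 and 5.65). Among the members, Jun correlated at 0.91 with Fosl1, 0.86 with Junb and 0.85 with Maff, and Fos at 0.83 with Fosb and -0.91 with Batf. The group means of Fosb and Batf spanned only 0.55 and 0.34, below the limit set for the genes above.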

How the data were processed

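Expression was measured in 4 groups of 2 arrays. The authors deposited log2 values; per the submitters' processing notes these were made with Partek 6.10.0511 and RMA (robust multi-array average), which corrects background, equalises the arrays and summarises probes per probe set. The sources used here give no settings, and no detection call comes with the values. Groups and replicate numbers (2 and 3) were taken from array titles; 1 null array without GH carries 2 in its title and 3 in its source label.

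Of 45101 probe sets, 64 controls were left out, 34945 had 1 gene, 932 several and 9160 none. Symbols were matched through Entrez identifiers to the GRCm38.p6 gene table for 34741. The probe set with the highest mean stood for each gene. All 8 arrays were fitted with limma 3.58.1 (R 4.3.3), with 1 mean per group, 4 residual degrees of freedom and moderated variances. The number of arrays limits the precision. Where a group mean lay below the first quartile of gene values, no size of change is given. The fit was tested on simulated data of 18193 genes: changes of 1 on the log2 scale were recovered in 100% of cases in each of the 4 comparisons other than the interaction, and changes of 0.5 in 80% (null against control without GH), 66% (with GH), 86% (GH in control cells) and 84% (GH in null cells). Only 50 genes were changed at each size, in 1 group and with independent noise. In the data 8640 and 8247 genes were called between the genotypes without and with GH, so the simulated shares need not hold there. Alternatives were another probe set summary, filter, normalization, variance trend, block, minimum fold, and each array left out.

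The members and lists were chosen with earlier results of these data known. All members are named; of each list, up to 4 called genes with the lowest p per comparison are named where a size can be given, and Dusp1 and the GH effect of Mmp9 were chosen after their values were seen. A sequence motif match is a description only.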

Additional observations from a re-analysis of the deposited data

Results flagged for a closer look

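A test of the difference itself found that the GH effect was not the same in both genotypes for 4 members. In log2 units, the effect in null cells exceeded that in control cells by 1.65 for Fosl1, 1.10 for Jun, 1.08 for Atf3 and 1.32 for Maff. Each passed limma's test under every one of 16 alternatives, with adjusted p of at most 0.00112, 0.00793, 0.00529 and 0.00323.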

How the results depend on the processing

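Under the alternatives run, the 4 interaction calls kept their direction and their side of the threshold. With each probe set tested alone, 15377 and 14728 probe sets differed between the genotypes without and with GH, 3598 with GH in null cells and 1621 in the interaction. Requiring 1.5-fold left 4521 and 4369 genes between genotypes (2 and 4 members) and 269 and 564 for GH in control and null cells. Fitting only the arrays compared gave 316 genes for GH in control cells. In the null response 6 members passed with probe sets averaged or quantile normalization, and 7 with the dim filter, median centring or the variance trend. Leaving out 1 array gave 7633 to 8405 and 6953 to 8477 genes between genotypes (4 to 6 and 6 to 8 members), 295 to 460 for GH in control cells (2 members throughout), 818 to 2409 in null cells (4 to 5 members) and 437 to 872 in the interaction (4 members throughout). The counts fell by over 1.5 times without either control array with GH (control response), without any 1 null array (null response), and without either control array with GH, either null array with GH or the null array without GH numbered 2 (interaction). Fosb and Batf gave no value with dim genes filtered out, and the fit of only the groups compared does not apply to the interaction. With the probe sets of a gene averaged, Fosl2 turned from -0.09 to 0.25 without GH (adjusted p = 0.0248, 0.0248 to 0.848 over all settings), since its dimmer probe set is higher in null cells.

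The titles' replicate numbers are not said to mark a shared culture or day, and the deviations of same-numbered arrays correlated between -0.279 and 0.129, so the numbers were not used as pairs. With the replicate number as a block, 8315, 7957, 427, 1713 and 754 genes were called in the 5 comparisons, against 8640, 8247, 476, 2130 and 938 without it, and the member counts did not change. With the numbers crossed in the arrays without GH, an alternative chosen after seeing the data, 553 and 2559 genes were called for GH in control and null cells.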
